A study of Mus musculus with 4 samples.

Results

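The 41 genes described here carry glucose into the cell, break it down to pyruvate and lactate, pass pyruvate into the mitochondrion as acetyl-CoA and turn the tricarboxylic acid (TCA) cycle. They were taken as a fixed list of gene symbols, which was chosen with earlier results of these data known. All 41 were found by name among the 24411 genes listed for each library. The list falls into 19 genes of glucose transport, glycolysis and lactate or pyruvate exchange, and 22 genes of pyruvate entry and the TCA cycle. All 41 passed the filter on low counts that left 13549 genes for testing.

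The libraries came from ICR mouse embryos at the late two-cell stage, which were made by in vitro fertilization and cultured in KSOM, a medium for cleaving embryos, with bovine serum albumin. In the inhibitor group the medium held 6 µM 10074-G5, a compound that attaches to MYC and blocks its pairing with MAX, and in the control group it held DMSO, the solvent of the compound. Each group had 2 libraries of polyadenylated RNA, each from 10 pooled embryos collected at 36 h post-insemination (hpi), so n = 2 stands for pools and not for single embryos. The exposure began at 3 hpi by the labels of the samples and at 6 hpi by the design text of the series. The comparison asks which of these genes depend on MYC–MAX pairing when the zygotic genome is switched on. MYC was not knocked out or knocked down here, so no targeted transcript checks the treatment.

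A mouse embryo of this stage is known to live mainly on pyruvate and lactate. It takes up and burns little glucose until the later cleavage stages, when glycolysis becomes prominent, and it cannot complete its first divisions without pyruvate. Pyruvate enters the mitochondrion and is converted to acetyl-CoA by the pyruvate dehydrogenase (PDH) complex, which kinases switch off and phosphatases switch on, and the TCA cycle then draws reducing power from it. In other tissues several glycolytic genes, among them *Ldha*, are classic MYC targets.

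The expected counts summed to between 18206584 and 20718690 per library. DMSO replicate 1 stood apart from the other 3 libraries: across the tested genes its log2 CPM (counts scaled to a normalized library total) had a Pearson's r of 0.825 to 0.887 with them, whereas the other pairs had r of 0.912 to 0.931. Markers of two-cell embryos were detected for 8 of 8 genes and those of oocytes and zygotes for 7 of 7, and the median of either list in DMSO replicate 1 lay 1.39 and 1.45 below the mean of the 4 libraries on the log2 scale. Members of both lists went the other way: *Dppa2* and *Dppa4* of the first and *Zp3* and *Dppa3* of the second were higher in DMSO replicate 1 than in any other library, with an FPKM for *Dppa2* of 942 there and of 106 to 224 in the other 3. Of 9 cumulus and granulosa markers, *Amh*, *Foxl2*, *Inhba* and *Ptx3* had no count in any library and the highest count of any was 128. Of 5 sperm markers, *Prm1* and *Tnp2* had no count in any library, and *Prm2* had counts of 10, 27, 111 and 39 in control pools 1 and 2 and treated pools 1 and 2. Values below follow this order of libraries. The part of other cells or of embryo stage in any result was not tested, and fewer cells of a kind cannot be told apart from less RNA per cell in pooled embryos.

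MYC and MAX bind as a pair to the E-box CACGTG, and RefSeq (GRCm38.p6, the same assembly as mm10) gives a promoter window, from 250 bases before to 50 after a start site, for 38 of the 41 genes. *Slc2a3*, *Pdp1* and *Idh3a* had none. CACGTG, which reads the same on either strand, lay in the window of 6 of the 38 genes (15.8%), against 8.09% of the 27025 genes with a window. These were *Pfkm*, *Ldha*, *Slc16a1*, *Pdk2*, *Pcx* and *Ogdh*. The related motif CACGCG or, on the other strand, CGCGTG, lay in the windows of 10 genes (26.3%, against 10.5% of all genes), which were *Hk1*, *Pfkp*, *Pgam1*, *Eno1*, *Ldha*, *Ldhb*, *Slc16a1*, *Pdk3*, *Idh3g* and *Suclg1*. Both shares of all genes are over the 27025 with a window. These were not limited to genes that passed the filter on low counts, as the members did, so the sets are unlike. A CACGTG match cannot share a base with either form of the other motif. The 250 bases before the start site are shown for 2 genes that hold CACGTG, for *Pdk3*, which holds the related motif and was higher in inhibitor-treated embryos, and for *Idh2*, which holds neither and was lower. They are written 5′ to 3′ on the strand of the gene, with both motifs in capitals.
Ldha, chr7:46845554-46845803, plus strand: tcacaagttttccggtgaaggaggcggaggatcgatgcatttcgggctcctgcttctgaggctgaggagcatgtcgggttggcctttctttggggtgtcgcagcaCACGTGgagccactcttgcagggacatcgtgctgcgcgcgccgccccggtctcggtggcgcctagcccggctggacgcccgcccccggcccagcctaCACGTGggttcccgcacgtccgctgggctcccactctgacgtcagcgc
Slc16a1, chr3:104638414-104638663, plus strand: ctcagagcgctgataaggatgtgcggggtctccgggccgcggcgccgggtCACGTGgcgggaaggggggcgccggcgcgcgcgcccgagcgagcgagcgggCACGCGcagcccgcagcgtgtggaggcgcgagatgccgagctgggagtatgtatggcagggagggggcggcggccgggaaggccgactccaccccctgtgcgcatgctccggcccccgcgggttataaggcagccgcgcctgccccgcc
Pdk3, chrX:93832151-93832400, minus strand: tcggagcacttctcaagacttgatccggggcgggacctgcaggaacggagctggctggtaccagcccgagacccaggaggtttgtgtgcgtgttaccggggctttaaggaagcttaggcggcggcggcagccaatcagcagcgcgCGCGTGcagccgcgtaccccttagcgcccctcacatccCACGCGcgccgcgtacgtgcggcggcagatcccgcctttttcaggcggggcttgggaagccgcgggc
Idh2, chr7:80115351-80115600, minus strand: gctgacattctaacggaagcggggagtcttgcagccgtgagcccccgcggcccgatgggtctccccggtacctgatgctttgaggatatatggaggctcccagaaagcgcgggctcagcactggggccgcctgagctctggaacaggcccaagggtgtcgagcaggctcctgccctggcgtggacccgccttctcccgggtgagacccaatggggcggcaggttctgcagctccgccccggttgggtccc
*Ldha*, which codes for the muscle form of lactate dehydrogenase, held CACGTG 145 and 48 bases before RefSeq's start site in the upstream one of its 2 windows, while its other window held CACGCG and no CACGTG, and *Slc16a1*, which codes for a carrier of lactate and pyruvate, held it 200 bases before. None of the 6 genes with CACGTG had an unadjusted edgeR p under 0.05 between the groups. Of all tested genes, 4.72% were higher and 10.1% lower at that p. Of the 6 genes, 3 were higher and 3 lower in inhibitor-treated embryos. Their median log2 fold change (log2FC, inhibitor-treated over DMSO) was -0.06, against 0.28 for the 32 members with a window and no CACGTG, of which 21 were higher and 11 lower. *Pfkm*, *Pdk2* and *Pcx*, among the 6, had counts of at most 26, 29 and 35 in any library, so a difference in them was hard to detect. A match describes the letters in the window and not whether MYC was bound there.

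The members spanned a wide range of FPKM (fragments scaled to transcript length and library depth, which allows levels to be compared between genes). The mean FPKM over the 4 libraries was under 1 for 6 members, from 1 to under 10 for 14, from 10 to under 100 for 16 and at least 100 for 5. These 5 were *Ldhb*, *Pdhb*, *Mdh2*, *Gapdh* and *Idh3g*. *Ldhb* and *Gapdh* belong to glycolysis and lactate exchange, and the other 3 to pyruvate entry and the TCA cycle. The genes that commit glucose to glycolysis stood at the other end, since both hexokinases and 2 of the 3 phosphofructokinases had a mean under 2. Summed over isozymes, hexokinase transcripts reached an FPKM of 0.90, 0.92, 0.98 and 1.20, the lowest of the 12 steps from glucose uptake to lactate in every library. Lactate dehydrogenase transcripts reached 292, 599, 801 and 844, the highest in every library.

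**Figure D1:**
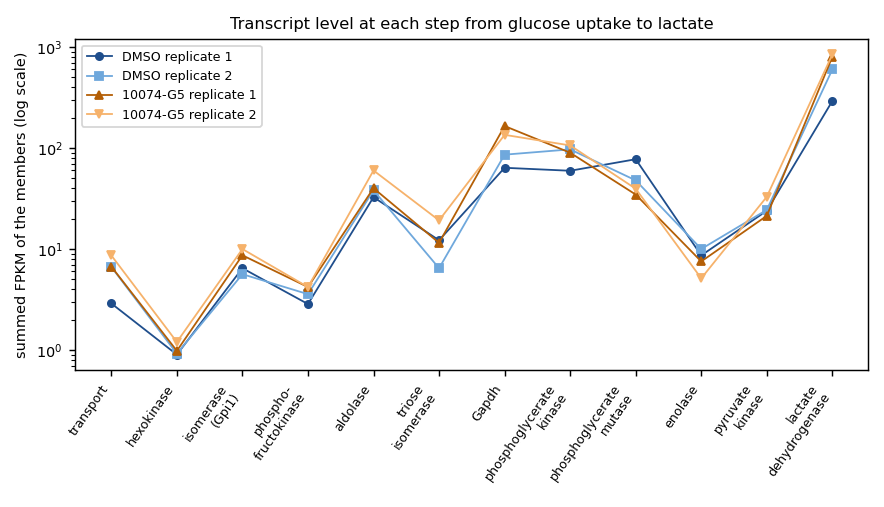
Summed FPKM (log scale) of the members that carry out each of 12 steps from glucose transport to lactate dehydrogenase, with 1 line for each library. Hexokinase is lowest in all 4 libraries, at 0.90 to 1.20, and lactate dehydrogenase highest, at 292 to 844, and the lines of the groups cross at several steps.

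Whether the treated and control embryos differed was tested with edgeR's quasi-likelihood test across all 13549 genes, with Benjamini-Hochberg adjustment. At an adjusted p under 0.05 and |log2FC| > 1, 0 of the 41 members were called higher and 0 lower, where the same test called 0% of all tested genes in either direction, and the smallest adjusted p of a member was 0.333. DESeq2 called 0 members in either direction, against 0.478% of the 18208 genes with at least 1 count called higher and 2.4% called lower. It gave no adjusted p for *Slc2a1*, *Hk1*, *Hk2*, *Pfkl*, *Pfkm*, *Aldoc*, *Pdk2*, *Pcx* and *Suclg1*, so these could not be called. Without DMSO replicate 2, when the control group rested on DMSO replicate 1, edgeR called 8 members higher and 4 lower, beside 14.6% of all genes called higher and 14.1% called lower. Without any 1 of the other 3 libraries it called 0 members. Direction by itself was uneven, with 26 members higher and 15 lower in inhibitor-treated embryos, while 51.5% of all tested genes were higher. The median log2FC was 0.24 for the members and 0.04 for all tested genes.

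An unadjusted edgeR p under 0.05 was found for 3 members that were higher, *Gapdh*, *Pdk3* and *Pdp1*, against 4.72% of all genes, and for 2 that were lower, *Idh2* and *Suclg1*, against 10.1%. The groups did not overlap in CPM for 15 members that were higher and 13 that were lower, against 28.9% and 28.3% of all genes. The groups of the remaining 13 members overlapped. In the control pools 10 members (24.4%) had a CPM more than 2-fold apart, a smaller share than the 37.3% of all genes. In the treated pools this held for 2 members (4.88%), against 15.9% of all genes. DMSO replicate 1 lay farther from the treated mean than DMSO replicate 2 for 31 members (75.6%), against 77.2% of all genes. Without DMSO replicate 1, 6 members were higher and 2 lower at an unadjusted edgeR p under 0.05, against 6.44% and 7.36% of all genes. Of the 5 genes named above, *Suclg1* was then no longer among them.

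**Figure D2:**
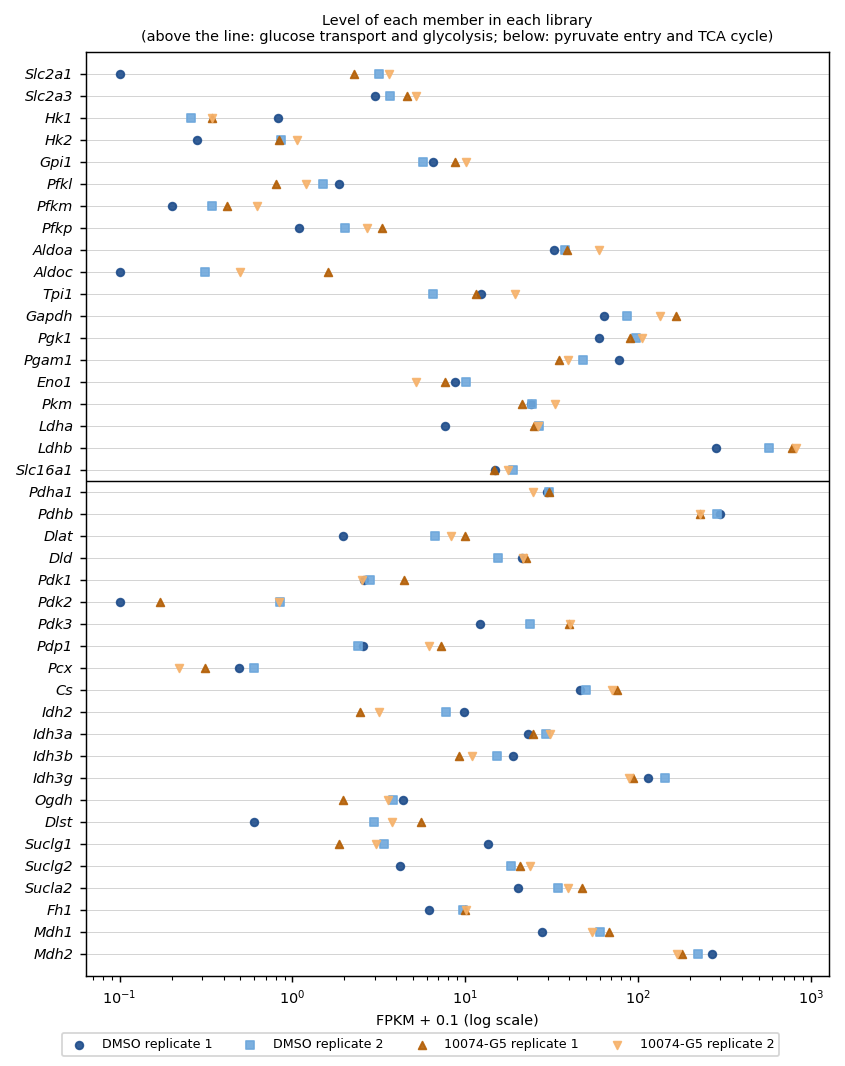
FPKM + 0.1 (log scale) of each of the 41 members, with 1 point for each library (circles and squares, DMSO; triangles, 10074-G5). DMSO replicate 1 lies apart from the other 3 libraries for genes such as *Slc2a1*, *Ldha*, *Suclg1* and *Suclg2*, while for *Gapdh*, *Pdk3*, *Pdp1* and *Idh2* the DMSO points lie on one side and the treated points on the other.

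Glucose transport and glycolysis leaned further toward higher values in treated embryos than pyruvate entry and the TCA cycle did, by counts and medians that were not tested against each other. Of the 19 genes of glucose transport, glycolysis and exchange, 14 were higher and 5 lower in inhibitor-treated embryos, and their median log2FC was 0.47. Of the 22 genes of pyruvate entry and the TCA cycle, 12 were higher and 10 lower, and their median log2FC was 0.10, close to the 0.04 of all tested genes. The medians differed by 0.38, and by 0.61 (0.46 against -0.15) when the lactate dehydrogenases, *Slc16a1*, the PDH kinases and phosphatase, *Pcx* and *Mdh1* were set aside. Without DMSO replicate 1 the medians were 0.33 for the 19 genes and -0.03 for the 22. No test over the lists was made, as the genes in a list share the same 4 libraries.

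The levels in single libraries were less clear. The log2 ratio of the median FPKM of the glycolysis genes to that of the pyruvate entry and TCA genes, which does not depend on library scaling, was -0.76, -1.24, -0.83 and -0.69. Its mean was -1 ± 0.34 (SD, n = 2) in the DMSO group and -0.76 ± 0.09 (SD, n = 2) in the inhibitor group, and DMSO replicate 1 lay within the range of the treated libraries. The difference of 0.24 was smaller than the spread between the DMSO replicates, and it was -0.03 when the exchange and regulation genes were set aside. The median glycolysis gene therefore stood below the median pyruvate entry and TCA gene in all 4 libraries. A shift of that balance of medians was not detectable with 2 libraries a group. The summed FPKM of the lists, in which abundant genes such as *Ldhb* weigh most, was not compared.

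Glucose enters the blastomere through facilitative transporters. *Slc2a1*, the transporter GLUT1, had an FPKM of 0, 3.07, 2.18 and 3.52 (counts of 0, 128, 104 and 160). DMSO replicate 1 alone lacked it, where 0 counts allow up to 0.18 CPM against 6.78 CPM in DMSO replicate 2, and the log2FC of 0.87 ± 1.54 (standard error) turned to -0.11 without that library. *Slc2a3*, the high-affinity transporter GLUT3, was the more abundant one in every library, at 2.89, 3.58, 4.52 and 5.12, with both treated libraries above both controls (log2FC 0.44 ± 0.46, edgeR adjusted p = 0.648).

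The hexokinases trap glucose as glucose 6-phosphate. *Hk1* stood at an FPKM of 0.72, 0.16, 0.24 and 0.24 and *Hk2* at 0.18, 0.76, 0.74 and 0.96. *Hk1* thus made up 80.0% of hexokinase FPKM in DMSO replicate 1 and 17.4% to 24.5% in the other 3 libraries. The counts behind *Hk1* were between 11 and 53, and its log2FC of -1.10 ± 1.34 became 0.59 without DMSO replicate 1. *Gpi1*, the isomerase that follows, was at 6.45, 5.63, 8.66 and 9.99, higher in both treated libraries (log2FC 0.47 ± 0.45).

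Phosphofructokinase, the committed step, varied between libraries in its make-up more than in its amount. *Pfkl*, the liver form, was at 1.76, 1.41, 0.70 and 1.09, *Pfkp*, the platelet form, at 0.99, 1.92, 3.18 and 2.59, and *Pfkm*, the muscle form, at 0.10, 0.24, 0.32 and 0.52. *Pfkl* accounted for 61.8%, 39.5%, 16.7% and 26% of the summed FPKM, so that it held the smaller share in both treated libraries, and *Pfkp* for 34.7%, 53.8%, 75.7% and 61.7%. The sum was 2.85, 3.57, 4.20 and 4.20. The log2FC was -0.99 ± 0.70 for *Pfkl*, 0.88 ± 0.58 for *Pfkp* and 1.19 ± 1.62 for *Pfkm*, none with an edgeR p under 0.05. An exact permutation of 2 against 2 libraries cannot reach that threshold, so the shares are a description. The *Pfkl* share differed more between the 2 controls than between DMSO replicate 2 and treated replicate 2. Leaving out DMSO replicate 1 gave a log2FC of -0.65 for *Pfkl* and 0.59 for *Pfkp*.

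Aldolase and the triose steps follow. *Aldoa*, the main aldolase, was at 32.6, 37.9, 38.5 and 59.5 (log2FC 0.32 ± 0.40). *Aldoc*, the brain form, had the largest positive difference of all members, a log2FC of 3.15 ± 1.86, on counts of 0, 9, 75 and 19. It made up at most 3.78% of aldolase FPKM, and a single treated library carried most of its counts. *Tpi1*, the triose phosphate isomerase, was at 12.2, 6.45, 11.5 and 19.2, and its groups overlapped.

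*Gapdh* (chr6:125161852-125166467, GRCm38.p6), which oxidizes glyceraldehyde 3-phosphate and served the study as a reference in qPCR, was the glycolysis member with the lowest unadjusted edgeR p. Its FPKM was 63.7, 85.9, 165 and 135, or 74.8 ± 15.7 in the DMSO group and 150 ± 20.8 in the inhibitor group (SD, n = 2). Both treated libraries lay above both controls by more than the distance between the controls. The log2FC was 0.89 ± 0.35 (1.85-fold, edgeR adjusted p = 0.333) and 0.82 without DMSO replicate 1. *H2afz*, a histone gene and the other qPCR reference, went the other way, with an FPKM of 4990, 3270, 2520 and 3050 and a log2FC of -0.74 ± 0.44 (edgeR adjusted p = 0.430). The study used *Gapdh* for qPCR across oocytes and embryo stages and *H2afz* for *Myc*-knockdown embryos. It reported no qPCR on inhibitor-treated embryos. *Gapdh* has many near-identical processed copies in the mouse genome, and with only uniquely mapped reads kept its level is uncertain.

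The payoff steps did not differ in 1 direction. *Pgk1*, phosphoglycerate kinase, was at 59.5, 96.9, 89.8 and 106, and *Pkm*, pyruvate kinase, at 23.9, 24.4, 21.3 and 32.9, with overlapping groups. *Pgam1*, phosphoglycerate mutase, was at 77.4, 47.8, 34.6 and 39.5 (log2FC -0.93 ± 0.43, edgeR adjusted p = 0.350), and *Eno1*, enolase, at 8.64, 10, 7.53 and 5.12 (log2FC -0.69 ± 0.51). In the middle of the pathway the treated libraries were thus above the controls at *Gapdh* and below them at *Pgam1* and *Eno1*. The log2FC of *Pgam1* was -0.37 without DMSO replicate 1, and the difference rested largely on that library.

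Lactate dehydrogenase interconverts pyruvate and lactate, and the heart form dominated. *Ldhb*, the most abundant member, was at 284, 572, 776 and 818 and made up 95.5% to 97.4% of lactate dehydrogenase FPKM. Both treated libraries lay above both controls, but the controls were themselves far apart (428 ± 204 in the DMSO group and 797 ± 29.4 in the inhibitor group, SD, n = 2), and the log2FC was 0.80 ± 0.40 (edgeR adjusted p = 0.377), or 0.48 when DMSO replicate 1 was left out. *Ldha* was at 7.54, 26.7, 24.8 and 26.4, so DMSO replicate 2 matched the treated libraries and DMSO replicate 1 alone was low. Its log2FC of 0.51 ± 0.56 became -0.06 without DMSO replicate 1. *Slc16a1*, the monocarboxylate carrier MCT1, was nearly level at 14.7, 18.7, 14.5 and 17.7 (log2FC -0.19 ± 0.36).

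**Figure D3:**
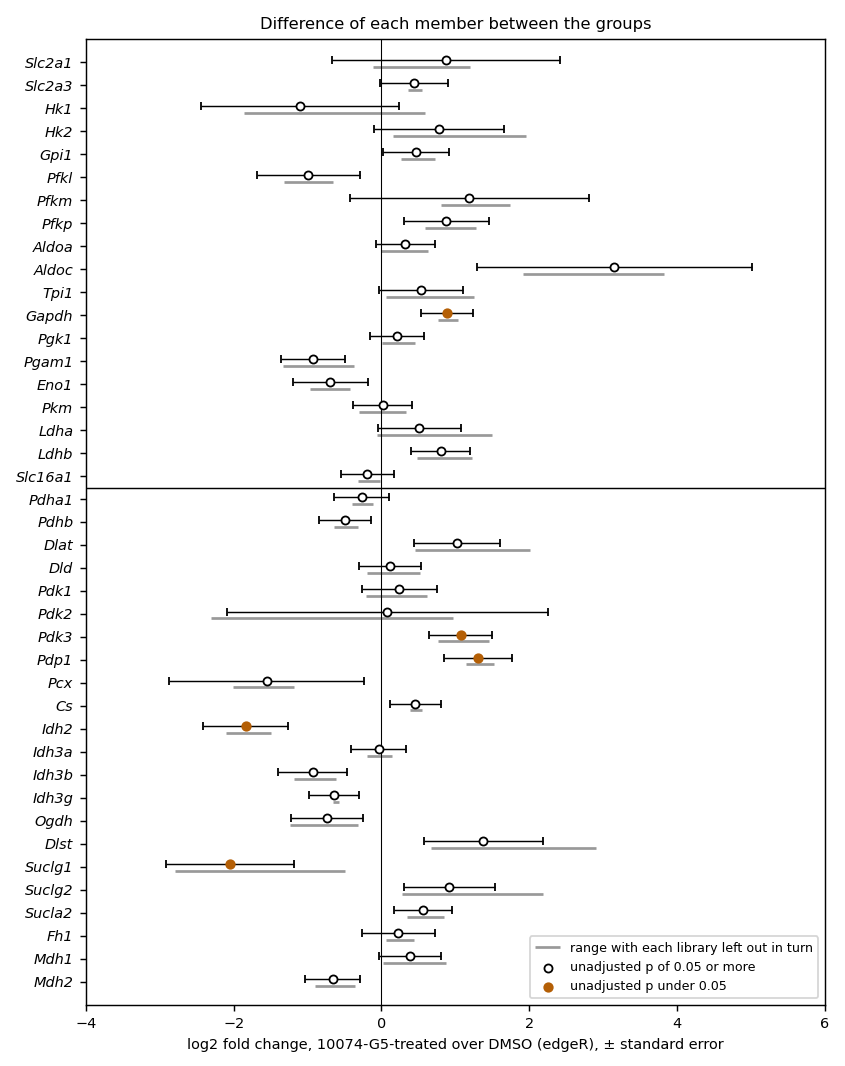
log2FC of each of the 41 members (inhibitor-treated over DMSO, edgeR, points with bars of ± 1 standard error), with the range of the log2FC when each library is left out in turn in grey. *Gapdh*, *Pdk3*, *Pdp1*, *Idh2* and *Suclg1* are filled for an unadjusted p under 0.05, and the grey range of *Suclg1* reaches -0.49. For *Slc2a1*, *Aldoc* and *Pdk2*, which had no count in DMSO replicate 1, the range leaves out the fit without DMSO replicate 2.

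The PDH complex was unevenly supplied with subunit transcripts. *Pdhb*, the beta subunit of its first enzyme, was at 298, 286, 230 and 230, far above its partner *Pdha1* at 29.7, 30.5, 30.4 and 24.7. *Dlat*, the acetyltransferase core, was the scarcest, at 1.86, 6.58, 9.83 and 8.2, and *Dld*, the dehydrogenase shared with other complexes, stood at 21.1, 15.3, 22.4 and 21.5. *Pdhb* was lower in both treated libraries (log2FC -0.49 ± 0.35) and *Dlat* higher (log2FC 1.02 ± 0.58, and 0.45 without DMSO replicate 1), so that *Pdhb* held 85.0%, 84.5%, 78.5% and 80.8% of the summed FPKM of the 4 genes. None of these 4 genes had an unadjusted edgeR p under 0.05.

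Among the members in pyruvate entry, *Pdk3* and *Pdp1*, which code for an inhibiting kinase and an activating phosphatase of the complex, had an unadjusted edgeR p under 0.05, and both were higher in treated embryos. *Pdk3* (chrX:93764616-93832150), the most abundant PDH kinase, was at 12.1, 23.5, 39.6 and 40.6 (17.8 ± 8.08 and 40.1 ± 0.70, SD, n = 2). Its log2FC was 1.07 ± 0.42 (2.10-fold, edgeR adjusted p = 0.333) and 0.77 without DMSO replicate 1. *Pdk1* overlapped between the groups at 2.51, 2.7, 4.35 and 2.44 (log2FC 0.24 ± 0.51), and *Pdk2* rested on counts of 0, 27, 3 and 29. *Pdk3* made up 82.8%, 87.2%, 90.0% and 92.7% of PDH kinase FPKM.

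*Pdp1* (chr4:11958183-11966450), a phosphatase that reactivates the complex, was at 2.47, 2.31, 7.19 and 6.08 (2.39 ± 0.113 and 6.63 ± 0.785, SD, n = 2). The gap between the groups was larger than the distance between replicates, and here the DMSO replicates were alike. Its log2FC was 1.31 ± 0.46 (2.49-fold, edgeR adjusted p = 0.333) and 1.52 without DMSO replicate 1. Its sister gene *Pdp2*, compared after its values were seen, was at 38.2, 25.9, 12.5 and 15.2 (log2FC -1.38 ± 0.42, edgeR adjusted p = 0.333; adjusted p = 0.0496 with DESeq2 and 0.0012 to 0.992 over all alternatives). *Pdp1* therefore made up 6.07% and 8.17% of the PDH phosphatase FPKM in the DMSO libraries and 36.6% and 28.5% in the treated libraries, while the sum was 40.7, 28.3, 19.7 and 21.3. The log2FC of *Pdp2* was -0.91 without DMSO replicate 1. *Pcx*, which carboxylates pyruvate to oxaloacetate, was scarce at 0.39, 0.50, 0.21 and 0.12 on counts of 9 to 35 (log2FC -1.55 ± 1.32).

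In the first span of the TCA cycle, *Cs*, citrate synthase, was at 46.2, 49.8, 75.4 and 70.5, with the treated libraries above the controls by more than the replicates differed (log2FC 0.46 ± 0.34, edgeR adjusted p = 0.508). *Idh2* (chr7:80094845-80118608), the mitochondrial isocitrate dehydrogenase that makes NADPH, was at 9.80, 7.65, 2.37 and 3.09 (8.73 ± 1.52 and 2.73 ± 0.509, SD, n = 2), on counts of 267, 198, 70 and 87. It had the smallest p of all members, with a log2FC of -1.84 ± 0.57 (edgeR adjusted p = 0.333; adjusted p = 0.0677 with DESeq2 and 0.0148 to 0.992 over all alternatives). Leaving out DMSO replicate 1 gave a log2FC of -1.49. *Idh1*, its cytosolic counterpart, compared after its values were seen, was at 1.84, 3.93, 9.56 and 10.6 (log2FC 1.70 ± 0.54, edgeR adjusted p = 0.333). The sum of both genes was 11.6, 11.6, 11.9 and 13.7, while the share of *Idh2* was 84.2%, 66.1%, 19.9% and 22.6%. The log2FC of *Idh1* was 1.35 without DMSO replicate 1.

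The NAD-dependent isocitrate dehydrogenase, the enzyme of the cycle proper, was lower in 2 of its 3 subunits. *Idh3g*, a regulatory subunit, was at 115, 143, 93.0 and 88.5 (log2FC -0.64 ± 0.34, edgeR adjusted p = 0.394) and *Idh3b*, another, at 18.8, 15.2, 9.06 and 10.8 (log2FC -0.93 ± 0.47, edgeR adjusted p = 0.375), with both treated libraries below both controls. *Idh3a*, the catalytic subunit, overlapped at 22.9, 29.4, 24.7 and 31.0 (log2FC -0.04 ± 0.37). Summed over the 3 subunits, the FPKM was 157, 187, 127 and 130.

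*Ogdh* and *Dlst*, the first and second enzymes of the oxoglutarate dehydrogenase complex, differed in opposite directions. *Ogdh* was at 4.27, 3.74, 1.87 and 3.48 (log2FC -0.74 ± 0.49) and *Dlst* at 0.50, 2.87, 5.46 and 3.69 (log2FC 1.38 ± 0.80, and 0.67 without DMSO replicate 1). *Ogdh* held 89.5%, 56.6%, 25.5% and 48.5% of their summed FPKM. Neither gene had an edgeR p under 0.05.

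Succinyl-CoA synthetase joins a common alpha subunit, *Suclg1*, to a beta subunit that makes GTP, *Suclg2*, or ATP, *Sucla2*. *Suclg1* (chr6:73248505-73276907) was at 13.5, 3.31, 1.77 and 2.95, on counts of 288, 67, 41 and 65, and its log2FC of -2.05 ± 0.86 (edgeR adjusted p = 0.334) was -0.49 without DMSO replicate 1. *Suclg2* was at 4.07, 18.2, 20.8 and 23.5 (log2FC 0.92 ± 0.61, and 0.28 without DMSO replicate 1), and *Sucla2* at 20.1, 34.3, 47.1 and 39.3 (log2FC 0.56 ± 0.39). DMSO replicate 1 thus held 35.9% of the summed FPKM in *Suclg1*, whereas the other DMSO library held 5.93% and the treated libraries 2.54% and 4.48%. The large difference in *Suclg1* rested on 1 control library.

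The cycle closes with fumarase and malate dehydrogenase. *Fh1*, fumarase, was at 6.10, 9.59, 9.92 and 10 (log2FC 0.23 ± 0.49). *Mdh2*, the mitochondrial malate dehydrogenase, was at 270, 224, 180 and 168, lower in both treated libraries (log2FC -0.66 ± 0.37, edgeR adjusted p = 0.405). *Mdh1*, the cytosolic form that serves the malate–aspartate shuttle, was at 27.9, 60.3, 68.3 and 54.2 and made up 9.37%, 21.2%, 27.5% and 24.3% of malate dehydrogenase FPKM. As with *Idh1* and *Idh2*, the share of the cytosolic form was higher in both treated libraries than in both controls, with DMSO replicate 1 lowest. Without DMSO replicate 1 the log2FC was -0.36 for *Mdh2* and 0.02 for *Mdh1*.

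**Figure D4:**
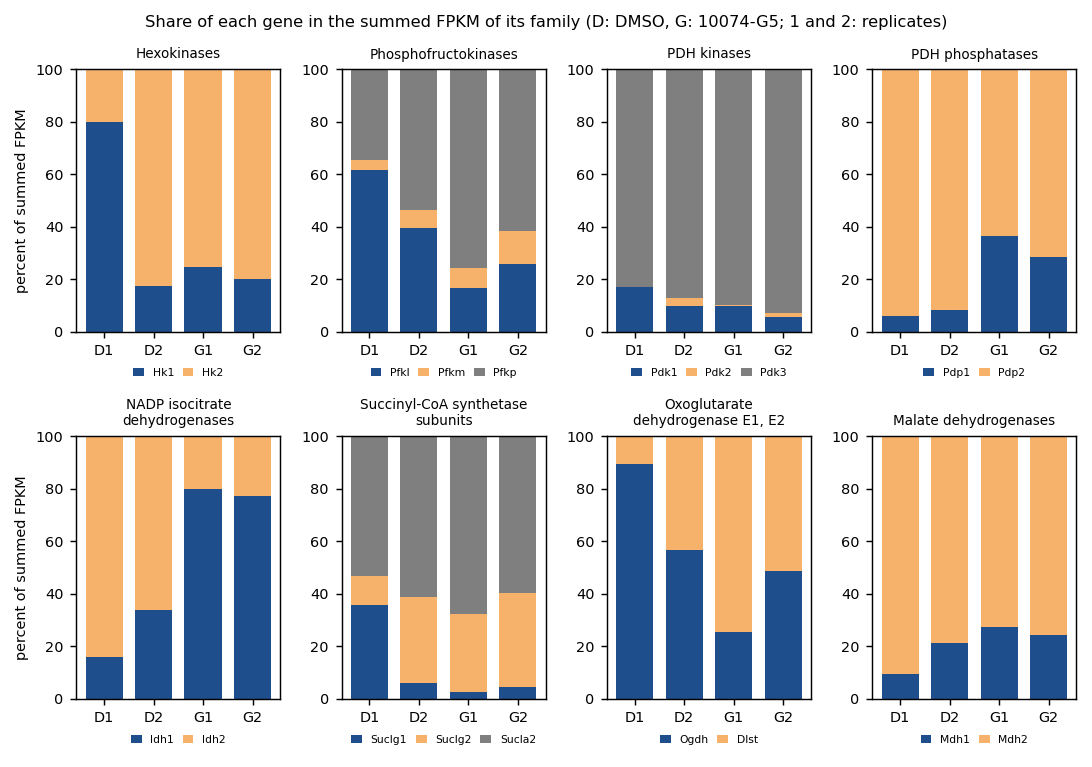
Share of each gene in the summed FPKM of its family (percent, stacked to 100), for DMSO replicates 1 and 2 (D1, D2) and 10074-G5 replicates 1 and 2 (G1, G2). *Pdp1* holds 6.07% and 8.17% in the DMSO libraries and 36.6% and 28.5% in the treated ones, and *Idh2* holds 84.2% and 66.1% against 19.9% and 22.6%, whereas the hexokinase shares differ mainly in D1.

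Beyond the members, a list of 50 further genes of glycolysis and pyruvate handling was read from the same fit. Of these, 33 were tested and 7 had no count in any library, and 0 were called by edgeR. At an unadjusted p under 0.05, 4 of the 33 were higher and 2 lower, against 4.72% and 10.1% of all tested genes. The median log2FC was -0.09. The higher ones were *Fbp1*, a gluconeogenic phosphatase (log2FC 1.58), *Bsg*, the chaperone of the monocarboxylate carriers (log2FC 0.85), *Galm*, a sugar mutarotase (log2FC 1.45), and *Pdhx*, which anchors *Dld* in the PDH complex. *Pdhx* was at an FPKM of 15.6, 22.8, 56.6 and 63.1, with a log2FC of 1.52 ± 0.36 (edgeR adjusted p = 0.333; adjusted p = 0.0169 with DESeq2 and 0.00176 to 0.992 over all alternatives). The lower ones were *Pdp2*, given above, and *Pfkfb3*, which makes the activator of phosphofructokinase (log2FC -2.02, and -0.79 without DMSO replicate 1).

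Of 27 further genes of the TCA cycle and its exchange reactions, 24 were tested and 0 were called by edgeR. At an unadjusted p under 0.05 *Idh1* was higher and 0 genes were lower, against 4.72% and 10.1% of all tested genes. The median log2FC was 0.14. Counts in the members' own spans can include reads of other genes, since the spans of 17 members overlap another RefSeq gene and no source used here says that reads were counted by strand. Among the 5 members with an unadjusted p under 0.05 this holds for *Pdk3* and *Suclg1*.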

How the data were processed

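Late two-cell ICR embryos were compared between DMSO and 10074-G5 (2 libraries each, grouped by their labels). SMART-Seq libraries of polyadenylated RNA were aligned by the authors to mm10 with STAR (2.7.10 in the submitters' processing notes), and uniquely mapped read pairs were quantified with RSEM 1.3.3. The deposited expected count is RSEM's estimate of a gene's fragments and is not normalized. The deposited TPM was read only to check its unit. The deposited FPKM, scaled by the authors to transcript length and depth, was used for levels and shares. SMART-Seq amplifies cDNA by PCR without molecular identifiers, so limits drawn from counts cover counting error only.

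Expected counts (3.97% to 4.49% not whole) were rounded, filtered with filterByExpr (minimum count 10, minimum total 15), scaled with TMM factors (0.873 to 1.06) and tested with edgeR 4.0.16 in R 4.3.3 (quasi-likelihood test, two-sided, all 4 libraries, group as the only term, Benjamini-Hochberg adjustment over 13549 genes). The common biological coefficient of variation was 0.557. A gene was called at an adjusted p under 0.05 and |log2FC| over 1. The study used DESeq2. CPM values are edgeR's, and fold comparisons between replicates added 0.5 to the CPM.

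Alternatives were DESeq2 1.42.0 (the tested genes, all genes with a count, or with transcript lengths), DESeq2's size factors, library totals, no filter, at least 10 counts in every library, limma 3.58.1 on log2(FPKM + 1) or log2(FPKM + 0.1) (mean FPKM 1 or more), the replicate number as a block, the adjusted p alone, and each library left out. The lone library left in a group is then assumed to vary like the other group. The fits were tested on simulated data. Adjusted p-values missing from DESeq2's output stayed missing.

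The members and lists were chosen with earlier results of these data known. By rule, values in every library with statistics were given for members with an unadjusted edgeR p under 0.05, for isozymes and for *Gapdh*, and genes of the further lists were named at an unadjusted p under 0.05. Values of the other members were added for completeness, and the pairs with *Pdp2* and *Idh1* were chosen after their values were seen. Positions and promoter windows are RefSeq's. Whether replicates came from separate batches of mice is not stated beyond their being biological replicates.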

Additional observations from a re-analysis of the deposited data

How the results depend on the processing

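With edgeR, 0 genes were called higher and 0 lower in the whole comparison, where 639 and 1374 genes had an unadjusted p under 0.05. Genes called higher and lower numbered 97 and 479 with DESeq2 on the tested genes, 87 and 437 with DESeq2 on all genes with a count, 87 and 438 with transcript lengths, and 165 and 479 with edgeR without a filter. With 1 library left out they ranged from 1 to 2148 and from 1 to 2065, the highest without DMSO replicate 2. Members called numbered 0 in every setting other than leaving out a library, which gave 0 to 8 higher (*Aldoc*, *Dlat*, *Dlst*, *Ldha*, *Ldhb*, *Pdk3*, *Slc2a1* and *Suclg2* without DMSO replicate 2) and 0 to 4 lower (*Idh2*, *Idh3b*, *Pgam1* and *Suclg1*, likewise). Members at an unadjusted p under 0.05 ranged from 0 to 12 higher and 0 to 7 lower with a library left out, and 1 was lower with library totals and with limma on either pseudocount. The replicate numbers were not shown to pair the libraries (correlation of deviations -0.0343). With the replicate block 12 genes were called higher and 32 lower, 0 of them members. The members at an unadjusted p under 0.05 were then *Dlst*, *Pdp1*, *Slc2a1* and *Suclg2* (higher) and 1 lower (*Idh2*). Of all genes, 6.61% were higher and 6.66% lower at that p. In that fit the median of the pyruvate and TCA members was 0.17, and the log2FC of *Pkm* was -0.01.

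The median log2FC of the glycolysis members was 0.59 with library totals, where the median of all genes also moved, to 0.17, and 0.33 to 0.60 with a library left out. That of the pyruvate and TCA members was 0.20 with library totals and with at least 10 counts in every library, 0.26 and 0.30 with limma (pseudocounts 1 and 0.1), -0.15 without the exchange and regulation genes, and -0.03 to 0.13 with a library left out. The difference of the medians stayed positive: 0.21 with at least 10 counts, 0.20 and 0.26 with limma, 0.61 without the exchange and regulation genes, and 0.34 to 0.48 with a library left out. The log2FC of *Idh3a* was 0.09 with library totals and with limma on either pseudocount. Leaving out 1 library turned the sign of the log2FC of 9 members, whose ranges were -0.11 to 9.94 for *Slc2a1* (its upper end set by a control library with no count), -1.86 to 0.59 for *Hk1*, -0.01 to 0.63 for *Aldoa*, -0.31 to 0.33 for *Pkm*, -0.06 to 1.49 for *Ldha*, -0.20 to 0.52 for *Dld*, -0.21 to 0.61 for *Pdk1*, -2.31 to 6.92 for *Pdk2* (likewise) and -0.20 to 0.14 for *Idh3a*. The cause of these shifts was not tested. Depth was alike in the 4 libraries, and the precision was limited by n = 2 and by counts under 30 on average for 5 members.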

Other observations

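A list of 22 regulators of energy metabolism was read from the same edgeR fit, of which 21 were tested and 0 were called. At an unadjusted p under 0.05, 0 of the 21 were higher and 2 were lower, against 4.72% and 10.1% of all tested genes. The median log2FC was -0.11. The lower ones were *Prkaa1*, a catalytic subunit of AMP-activated protein kinase, and *Vhl*, which targets hypoxia-inducible factors for destruction. *Prkaa1* had an FPKM of 12, 6.68, 1.97 and 3.88 in control pools 1 and 2 and treated pools 1 and 2 (log2FC -1.86 ± 0.56, edgeR adjusted p = 0.333; adjusted p = 0.0332 with DESeq2 and 0.00297 to 0.992 over all alternatives). *Prkaa2*, its alternative catalytic subunit, was at 1.24, 2.45, 3.81 and 4.57 (log2FC 1.07 ± 0.46, edgeR adjusted p = 0.338). *Vhl* was at 49.3, 33.9, 21.1 and 21.5 (log2FC -1.13 ± 0.41, edgeR adjusted p = 0.333). Leaving out DMSO replicate 1 gave a log2FC of -1.19 for *Prkaa1*, 0.77 for *Prkaa2* and -0.67 for *Vhl*. *Hif1a*, the hypoxia-inducible factor that drives glycolytic genes in other tissues, was at 5.57, 28.2, 28.7 and 30.3, so only DMSO replicate 1 differed, and its log2FC was 0.06 without that library.

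The mitochondrial pyruvate carrier was among the most abundant transcripts of the pathway. *Mpc1* was at an FPKM of 1420, 1100, 1170 and 859 and *Mpc2* at 608, 612, 602 and 633, so *Mpc1* was above *Ldhb*, the highest member, in all 4 libraries and *Mpc2* in both DMSO libraries. *Bpgm*, which diverts a glycolytic intermediate to 2,3-bisphosphoglycerate, was at 101, 184, 292 and 243 (log2FC 0.80 ± 0.39, edgeR adjusted p = 0.361), above *Pgam1* in every library. *Prkaa2*, *Hif1a*, *Mpc1*, *Mpc2* and *Bpgm* were singled out after their values were seen.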
